A study of Mus musculus with 30 samples.

Results

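The 44 genes described here encode the machinery that copies DNA in S phase: the 6 subunits of the MCM helicase, 9 origin licensing factors, 6 factors that activate the helicase, 9 polymerase and primase subunits, the sliding clamp and its 5-subunit loader, the 3 subunits of replication protein A, 2 enzymes that finish Okazaki fragments and 3 enzymes of nucleotide supply. They were picked by name for their known role in replication, with earlier results of these data known, by matching the gene identifiers of the count table to symbols. All 44 were found among the 55421 genes of the table, and all 44 had enough counts to be tested. They were followed through 30 RNA-seq libraries of mouse embryonic stem cells in which cohesin cofactors were degraded for 24 h, with 3 libraries in each of 10 groups.

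All lines derive from E14, an XY embryonic stem cell line from 129P2/Ola mice, grown with serum, LIF and the inhibitors PD0325901 and CHIR-99021. Every line carries Tir1, the plant adaptor that sends proteins with an AID tag to destruction when auxin is given. The control line, called TIR1 here, has Tir1 alone. The PDS5AB line has AID on both PDS5A and PDS5B, proteins that bind cohesin and regulate how long it stays on chromatin. The WAPL line has AID on WAPL, the factor that releases cohesin from DNA. The PDS5AB-NIPBL line has PDS5A-AID and PDS5B-AID together with NIPBL-FKBP and RAD21-Halo, and the WAPL-NIPBL line has WAPL-AID with the same NIPBL-FKBP and RAD21-Halo. NIPBL stimulates cohesin to extrude DNA loops, and its FKBP tag makes it a target of the small molecule dTAG-13. Each line was taken untreated and after 24 h in 500 µM auxin, to which 500 nM dTAG-13 was added for both NIPBL lines. Each genotype is represented by 1 named line, so the genotype and the history of that line cannot be told apart. The labels do not say whether the 3 replicates of a group were separate cultures, and p-values therefore measure the spread between these libraries.

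Total counts lay between 19632704 and 45539021 per library, and the lowest correlation between replicates was 0.987. The untreated and treated TIR1 libraries carry library numbers from separate runs of the numbering, so the response of TIR1, and each comparison with it, crosses that divide. The transcripts of the tagged genes check no depletion, because degradation acts on the protein: Wapl, for example, was at a mean of 176 CPM in the untreated and 171 CPM in the treated WAPL line. The 10 pluripotency markers summed to between 4490.3 and 7429.6 CPM over all libraries, and all 10 were detected.

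Replication starts at origins bound by the origin recognition complex, where CDC6 and CDT1 load MCM rings in G1 phase, and the rings become active helicases when CDC45 and the GINS complex join them at the start of S phase. DNA polymerase alpha and primase then lay down primers, RFC loads the PCNA clamp, and polymerases epsilon and delta extend the strands. Many of these genes are known targets of E2F transcription factors, and embryonic stem cells, which cycle fast with short gap phases, keep their transcripts high. In a bulk library, fewer cells in S phase and less RNA per cell cannot be told apart.

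The promoters of 8 members are shown here because most members moved in the same direction. Each run holds up to 160 bases just upstream of the start site of a member, read from the RefSeq promoter table on GRCm38, 5′ to 3′ on the gene's own strand, and holds no exon base of the count table's annotation. The run of Cdc6 lies inside its annotated gene, which begins at 98907801, between exons, and the others lie before their gene. Capitals mark CCAAT and any of 4 E2F octamers, TTTCCCGC, TTTGGCGC, TTTCGCGC and TTTGCCGC, on either strand. Mcm5, Mcm6, Orc3, Cdc6 and Pola1 are shown as members with an octamer, Mcm10 and Rrm2 as members that fell far and have CCAAT alone, and Rpa3 as a member that did not pass the test in any line. They lie at chr8:75109349-75109508 (plus strand), chr1:128359706-128359865 (minus), chr4:34614945-34615102 (minus), chr11:98907991-98908150 (plus), chrX:93632156-93632315 (minus), chr2:5012792-5012951 (minus), chr12:24708094-24708240 (plus) and chr6:8259174-8259301 (minus), in that order.
Mcm5: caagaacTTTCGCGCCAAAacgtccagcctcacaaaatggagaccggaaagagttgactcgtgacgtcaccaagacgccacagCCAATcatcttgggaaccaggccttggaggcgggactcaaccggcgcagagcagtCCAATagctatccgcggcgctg
Mcm6: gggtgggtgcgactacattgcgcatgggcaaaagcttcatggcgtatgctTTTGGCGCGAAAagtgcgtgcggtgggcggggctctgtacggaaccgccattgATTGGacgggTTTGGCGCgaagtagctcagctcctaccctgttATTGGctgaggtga
Orc3: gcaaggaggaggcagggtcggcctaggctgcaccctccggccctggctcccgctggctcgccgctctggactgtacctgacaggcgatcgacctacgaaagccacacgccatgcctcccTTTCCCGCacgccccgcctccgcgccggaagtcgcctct
Cdc6: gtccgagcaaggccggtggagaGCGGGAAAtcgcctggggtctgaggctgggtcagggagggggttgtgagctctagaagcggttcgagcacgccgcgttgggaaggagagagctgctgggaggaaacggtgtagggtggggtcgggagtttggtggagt
Pola1: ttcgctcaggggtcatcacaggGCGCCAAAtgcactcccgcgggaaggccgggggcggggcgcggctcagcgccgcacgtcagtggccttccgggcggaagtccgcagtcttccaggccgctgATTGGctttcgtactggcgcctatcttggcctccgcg
Mcm10: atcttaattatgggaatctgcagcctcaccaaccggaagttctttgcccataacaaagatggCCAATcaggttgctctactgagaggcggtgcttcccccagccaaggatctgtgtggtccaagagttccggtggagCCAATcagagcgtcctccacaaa
Rrm2: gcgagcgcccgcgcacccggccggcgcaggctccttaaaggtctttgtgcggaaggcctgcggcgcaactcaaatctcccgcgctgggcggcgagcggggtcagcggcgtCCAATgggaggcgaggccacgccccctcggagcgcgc
Rpa3: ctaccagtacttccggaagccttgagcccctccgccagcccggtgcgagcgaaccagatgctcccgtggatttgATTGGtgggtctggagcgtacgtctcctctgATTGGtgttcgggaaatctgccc

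Of the 44 members, 36 had an entry in that table, and 15 of the 36 (41.7%) held at least 1 of the 4 octamers within the 300 bases around the start site. Among all 27025 genes of the table the share was 2.6%. CCAAT was found in 23 of the 36 members (63.9%) and in 41.1% of all genes. In Mcm5 and in Mcm6 an octamer read on the gene's strand overlaps another read on the opposite strand, which is why their first run of capitals is longer. A match is a description of the letters only.

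After treatment, the summed level of the replication genes was lower in each of the 5 lines, with the largest drop in the PDS5AB line and a smaller one under auxin alone, while single members differed in whether they passed the test. The summed level of the 44 members fell from 7554 ± 158 to 5486 ± 76.3 CPM in the PDS5AB line (CPM, counts scaled to the library size multiplied by its TMM factor; SD, n = 3), a change of -27.4%. As a plain share of all counts, with no such scaling, the members took between 0.7572% and 0.7767% of the untreated and between 0.6086% and 0.6259% of the treated PDS5AB libraries, whose TMM factors were 1.01 to 1.02 and 1.13. In the WAPL line it went from 8540 ± 383 to 6623 ± 412 CPM, in the PDS5AB-NIPBL line from 7821 ± 281 to 6683 ± 221 CPM, and in the WAPL-NIPBL line from 8420 ± 345 to 7530.0 ± 355 CPM. Auxin alone took the TIR1 line from 8836 ± 286 to 7894 ± 264 CPM, a change of -10.7% beside -10.6% in the WAPL-NIPBL line. In none of the 5 lines did the treated and untreated sums overlap.

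Tested with edgeR (quasi-likelihood, Benjamini-Hochberg adjusted over 19868 genes), 38 of the 44 members fell in the PDS5AB line at an adjusted p under 0.05, where 20.2% of all genes tested fell. In the WAPL line 33 members fell beside 15.8% of all genes (38 with the replicate number as a block), and in the PDS5AB-NIPBL line 25 beside 8.06% (35 with the block). The WAPL-NIPBL line had 9 members called lower beside 3.45% of all genes, and 26 with the block. The block also raised the calls over all genes, in both directions together, from 6517 to 8960 in WAPL. They rose from 3874 to 6377 in PDS5AB-NIPBL and from 1702 to 4152 in WAPL-NIPBL. In TIR1, 17 members were called lower beside 9.59% of all genes, and 1, Rrm2, was called higher beside 10.4%. In the 4 degron lines no member was called higher (25.8% of all genes were for PDS5AB, 17% for WAPL, 11.4% for PDS5AB-NIPBL and 5.11% for WAPL-NIPBL), none had an unadjusted p under 0.05 in that direction, and DESeq2 called none. The median log2 change of the members was -0.39 for PDS5AB, -0.34 for WAPL, -0.22 for PDS5AB-NIPBL, -0.15 for WAPL-NIPBL and -0.15 for TIR1, while the median of all genes lay between -0.01 and 0.04.

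**Figure D1:**
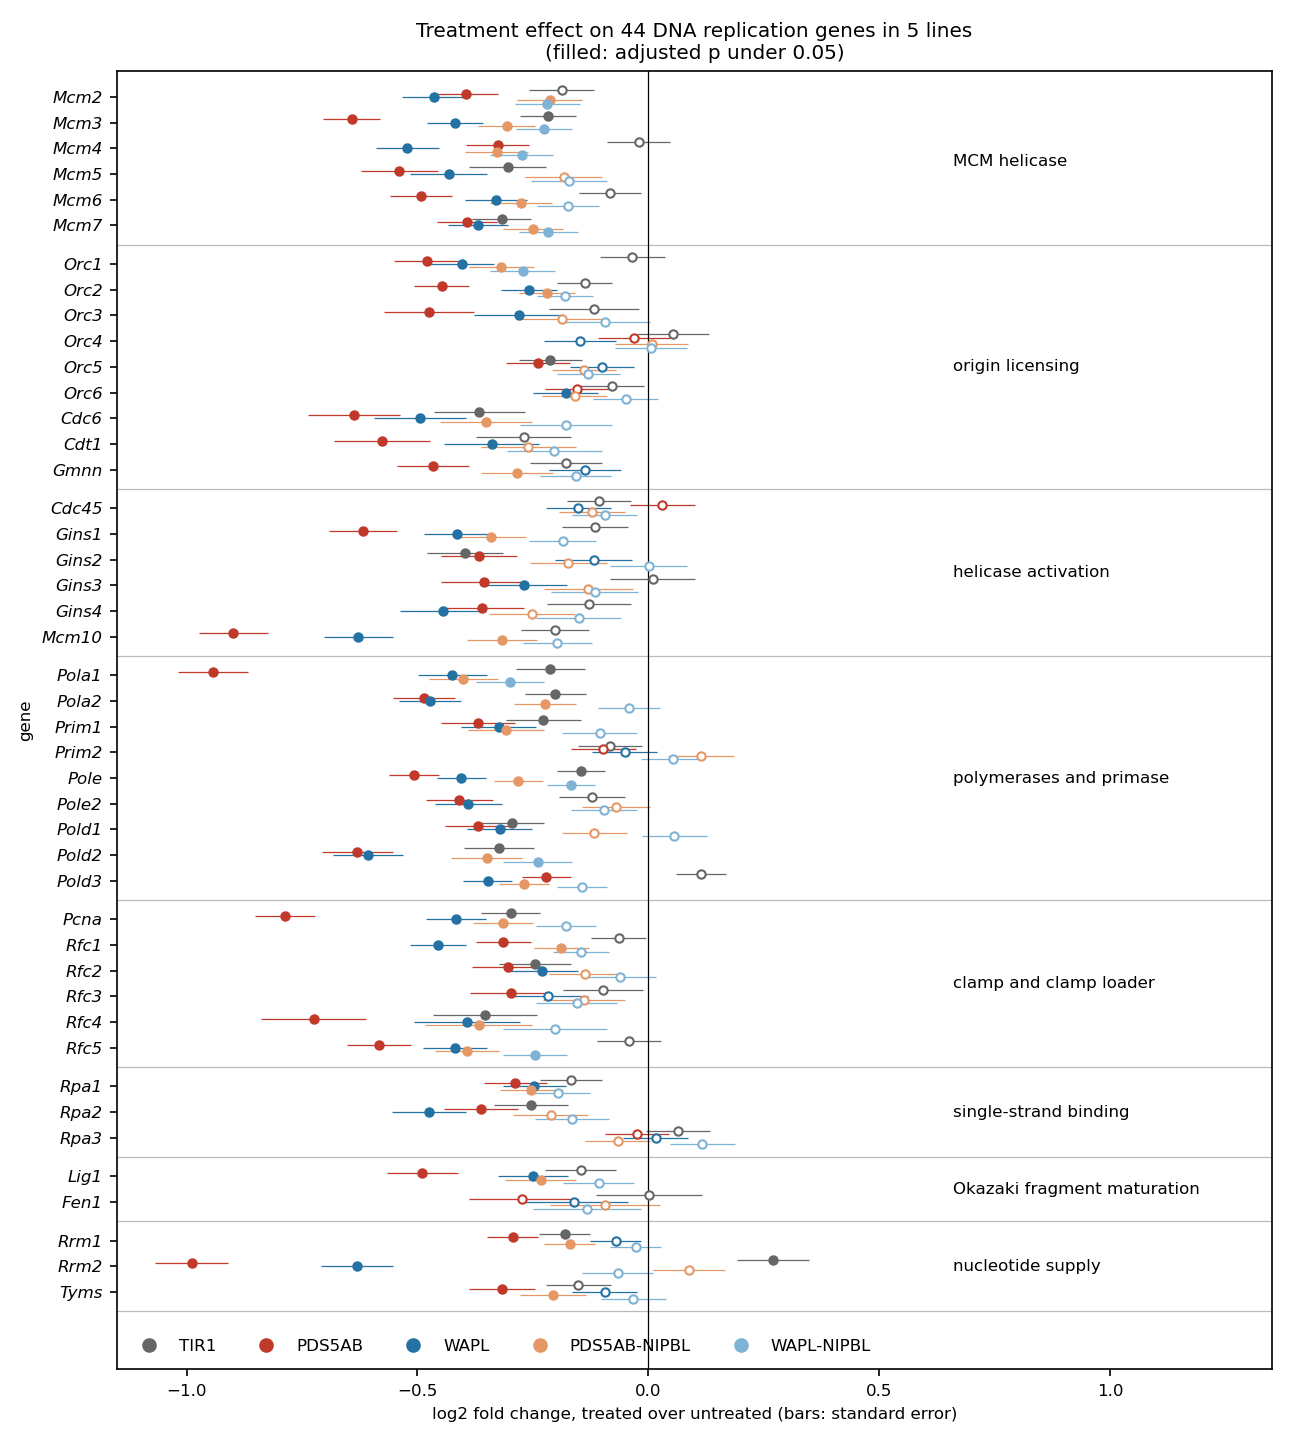
The log2 fold change of treated over untreated libraries, with its standard error, is plotted for each of the 44 genes in the 5 lines, grouped by role. Filled points passed the test at an adjusted p under 0.05. The points of the PDS5AB and WAPL lines lie left of 0 for 43 of the 44 genes each, and Rrm2 is the filled point to the right of 0, in TIR1.

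The size of these changes depends in part on the scaling. Without TMM scaling, the median of all genes in the PDS5AB line moved from 0.04 to 0.19 and that of the members from -0.39 to -0.24, with 32 members called lower and 1, Cdc45 at 0.18, called higher. The TIR1 and WAPL-NIPBL counts rest on few libraries. Without treated replicate 1, 6 members were called in TIR1, without untreated replicate 2 there were 7, and without treated replicate 2 or 3 there were 11. In that order, 2759, 2689, 3006 and 2895 of all genes were called in both directions together, beside 3962 with every library. Without treated replicate 1 the share of members called was thus near that of all genes. In the WAPL-NIPBL line, 1 member was called without treated replicate 3 or untreated replicate 1, 2 without treated replicate 2, 4 without untreated replicate 3 and 5 without untreated replicate 2. These fits called between 1147 and 1334 of all genes, beside 1702 with every library. Where 1 or 2 members were called, their share was below that of all genes.

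**Figure D2:**
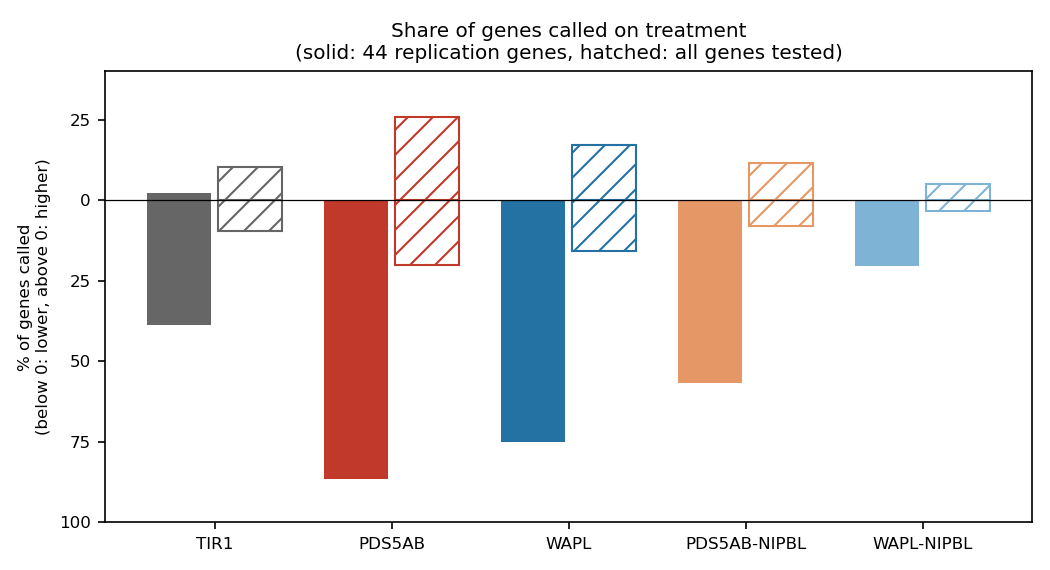
The share of the 44 genes (solid bars) and of all 19868 genes tested (hatched bars) called lower (drawn below 0) or higher (above 0) is shown in percent for each line's treatment effect. The solid bars reach 86.4% below 0 in PDS5AB, beside 20.2% for all genes, and TIR1 is the 1 line with a solid bar above 0.

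Every MCM subunit fell in both the PDS5AB and the WAPL lines. The 6 subunits assemble in equal number into the ring that unwinds DNA, and their transcripts made up 3658 ± 141 CPM of the 8836 CPM of all members in untreated TIR1 cells. Mcm3 was at 565, 563 and 552 CPM in the untreated PDS5AB libraries and at 373, 357 and 346 CPM in the treated ones. These 2 groups stood far apart relative to their spread, with a log2 change of -0.64 (SE 0.06, adjusted p = 9.7e-10 by edgeR's quasi-likelihood test). In the WAPL libraries Mcm4 moved furthest of the subunits, from 507, 468 and 479.5 CPM to 343, 342 and 329 CPM. The treated values again did not reach the untreated ones, and the log2 change was -0.52 (SE 0.07, adjusted p = 5.5e-07).

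Mcm4 was the subunit whose response differed most between the WAPL and control lines. Under auxin alone Mcm4 stood at 423, 473 and 455 CPM beside 478, 461 and 432 CPM untreated, overlapping groups with a log2 change of -0.02 (adjusted p = 0.87), while Mcm3, Mcm5 and Mcm7 were called lower there, at -0.22, -0.30 and -0.32. In the NIPBL lines 5 of the 6 subunits fell with PDS5AB and 4 of the 6 with WAPL, and Mcm5 missed the threshold in both at -0.18 and -0.17 (adjusted p = 0.13 and 0.23 by edgeR), as did Mcm6 in WAPL-NIPBL at -0.17 (adjusted p = 0.11). With the replicate block all of these were called, Mcm5 at adjusted p = 0.00046 and 0.0016 and Mcm6 at 0.00051. The call of Mcm4 in WAPL-NIPBL (-0.27, adjusted p = 0.0087) was lost without treated replicate 2 or 3 or untreated replicate 1 (adjusted p = 0.059, 0.0511 and 0.10). Per kb of exon, Mcm3 stood highest of the subunits in untreated TIR1 cells at 199 CPM per kb and Mcm2 lowest at 94.8 CPM per kb. That order depends on the annotation, because the length counts every annotated exon base, 6956 for Mcm2 and 3752 for Mcm3. Without division by length, Mcm3 was at 746 CPM, Mcm7 at 662, Mcm2 at 660, Mcm5 at 648, Mcm6 at 484 and Mcm4 at 457. After PDS5AB loss Mcm3 was at 95.6 CPM per kb, close to Mcm5 at 95.4 and Mcm7 at 93.7 CPM per kb. Of the Mcm7 exon bases 12.6% are shared with neighbouring genes.

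**Figure D3:**
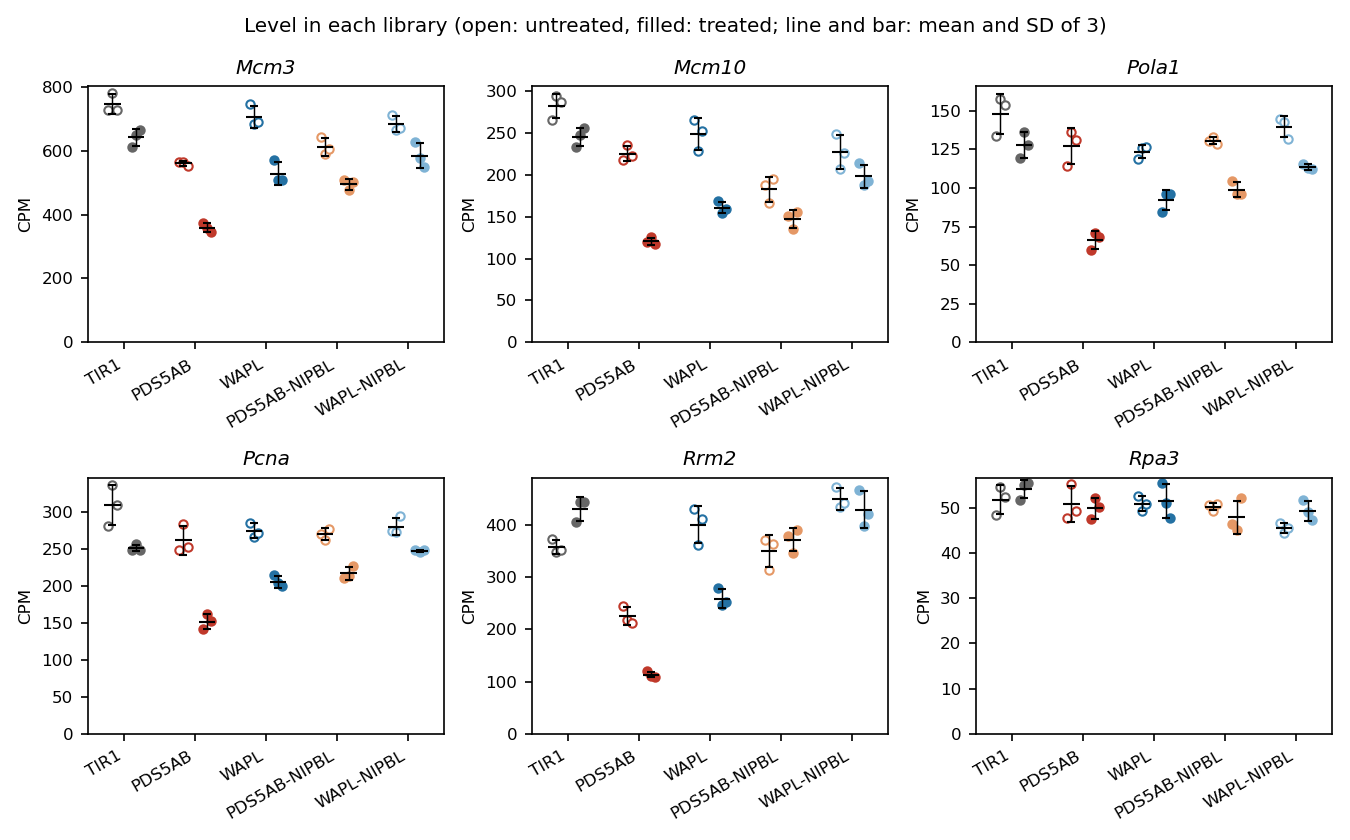
Normalized levels in CPM are plotted for Mcm3, Mcm10, Pola1, Pcna, Rrm2 and Rpa3 in every library, by line. Open points are untreated and filled points treated libraries, and the bars give the mean and SD of 3. Rrm2 drops from between 212 and 244 to between 109 and 119 CPM in PDS5AB and rises in TIR1, and Rpa3 stays between 44.5 and 55.5 CPM throughout.

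Of the 9 licensing factors, 7 fell in the PDS5AB line and 6 in the WAPL line, while PDS5AB-NIPBL had 4 and WAPL-NIPBL 1. Under the block WAPL had 9, PDS5AB-NIPBL 8 and WAPL-NIPBL 6. Cdc6, which loads the MCM ring, went from 85.8, 98.4 and 84.7 CPM to 57.8, 60.7 and 54.4 CPM in PDS5AB, with no overlap (log2 change -0.64, SE 0.10, adjusted p = 5.2e-06 by edgeR). Its partner Cdt1 went from 189.9, 148.5 and 146 CPM to 128, 100 and 96.1 CPM, a log2 change of -0.58 (adjusted p = 3.6e-05). Gmnn, which encodes the CDT1 inhibitor geminin, moved with them in the same cells at -0.47 (adjusted p = 1.3e-05 by edgeR).

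Cdc6 also fell in WAPL (-0.49), PDS5AB-NIPBL (-0.35) and TIR1 (-0.37). Its call in PDS5AB-NIPBL was lost without treated replicate 2 or untreated replicate 1 or 3 (adjusted p = 0.10, 0.064 and 0.091 by edgeR) and with those 2 groups fitted alone (adjusted p = 0.052), and its call in TIR1 was lost without treated replicate 1 (adjusted p = 0.057).

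The subunits of the origin recognition complex differed among themselves. Orc1, its largest subunit and the one that cycles in mammalian cells, was at 115, 139 and 127 CPM in untreated and 85.2, 95.3 and 92.6 CPM in treated PDS5AB libraries (log2 change -0.48, adjusted p = 1.7e-06 by edgeR). It was called lower in all 4 degron lines, and in TIR1 it was at 123, 137 and 145 CPM untreated and 125, 137 and 133 CPM treated, with overlapping groups. In the WAPL-NIPBL line Orc1 was the 1 licensing factor called (-0.27, adjusted p = 0.012), and the call was lost without treated replicate 3 or untreated replicate 1 (adjusted p = 0.088 each).

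Orc2 fell in 3 of the degron lines, Orc3 in PDS5AB and WAPL, and Orc5 in PDS5AB (-0.24) and TIR1 (-0.21). Orc4, in contrast, stood at 38.2, 44.1 and 43.4 CPM before and 35.1, 43 and 44.9 CPM after PDS5AB loss, and it was not called in any line without the block. In WAPL its change of -0.15 missed the threshold (adjusted p = 0.153 by edgeR) and passed with the block (adjusted p = 0.0157). Orc6 was called in WAPL alone, at -0.18 (adjusted p = 0.047 by edgeR), beside -0.15 in PDS5AB (adjusted p = 0.071), a call that the replicate block gave too (adjusted p = 0.0061). The block also called Orc2 and Orc5 in all 4 degron lines, and Orc3 and Orc6 in PDS5AB-NIPBL. Of the Orc2 exon bases, 29.8% are shared with Nif3l1, of those of Orc1 10.8% with Gm12743, of Orc4 7.8% with Acvr2a and Mbd5, of Orc6 6.93% with Vps35 and of Orc5 1.46% with Gm15421, so that part of their fragments is uncertain.

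Mcm10, which helps to switch the loaded ring on, was among the 4 members with the largest falls in both PDS5AB and WAPL. It went from 218, 235 and 222 CPM to 120.0, 126 and 117 CPM in PDS5AB, a log2 change of -0.90 (SE 0.08, adjusted p = 8.3e-11 by edgeR), and from 265, 228 and 253 CPM to 168, 155 and 159 CPM in WAPL, a change of -0.63 (SE 0.07, adjusted p = 1e-07). Both drops left a wide gap between the groups. In PDS5AB-NIPBL the levels were 188, 167 and 195 CPM untreated and 150.5, 135 and 155 CPM treated, a smaller fall of -0.32 (adjusted p = 0.0026) from a lower starting level. In WAPL-NIPBL the groups overlapped and the change of -0.20 missed the threshold (adjusted p = 0.10), which it passed with the replicate block (adjusted p = 0.00022).

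Of the GINS subunits, which tie CDC45 to the ring, Gins1 fell in PDS5AB from 41.7, 46.5 and 42.5 CPM to 27.6, 28 and 29.5 CPM, groups far apart (log2 change -0.62, adjusted p = 6e-08 by edgeR), and Gins3 and Gins4 fell in PDS5AB and WAPL. Gins2 had the largest fall of any member in TIR1, from 53.7, 57.3 and 50.9 CPM to 39.6, 42 and 41.2 CPM (-0.40, SE 0.08, adjusted p = 0.00091). In PDS5AB it changed by -0.37, and in WAPL, where its groups overlapped, by -0.12 (adjusted p = 0.30). Since 67.3% of the Gins2 exon bases are shared with Gse1, its values are uncertain.

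Cdc45, the remaining component of the active helicase, had the smallest change of the group in PDS5AB. It stood at 65.7, 74.5 and 75.8 CPM before and 69.6, 74.4 and 76.6 CPM after PDS5AB loss, and was not called in any line with TMM scaling and no block. In WAPL its change of -0.15 (adjusted p = 0.098 by edgeR) passed the threshold with the block (adjusted p = 0.00966) and without treated replicate 1 (adjusted p = 0.0224). Of the Cdc45 exon bases 5.96% are shared with Ufd1, which leaves part of its fragments uncertain. Helicase activators called lower numbered 5 of 6 in PDS5AB, 4 in WAPL and 2 in PDS5AB-NIPBL, the last becoming 4 with the replicate block. In WAPL-NIPBL none was called by edgeR and 3 were with the block.

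Among the polymerase and primase subunits, Pola1 fell furthest in PDS5AB and in both NIPBL lines, and Pold2 in WAPL and TIR1. Pola1 encodes the catalytic subunit of polymerase alpha, which starts each new strand, on chromosome X at 93304767 to 93632155. In PDS5AB, Pola1 went from 114, 137 and 131 CPM to 60, 70.8 and 68.1 CPM, so that the highest treated library was far below the lowest untreated one (log2 change -0.94, SE 0.08, adjusted p = 3.7e-11 by edgeR). In WAPL it went from 119, 126 and 126 CPM to 84.5, 95.9 and 95.8 CPM (-0.42, adjusted p = 4.6e-05).

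Both NIPBL lines kept a clear gap for Pola1 as well. It was at 131, 133 and 128 CPM untreated and 105, 96.1 and 96 CPM treated in PDS5AB-NIPBL (-0.40, adjusted p = 0.00021 by edgeR), and at 144, 143 and 132 CPM and 116, 113 and 112 CPM in WAPL-NIPBL (-0.30, adjusted p = 0.0087). These were the largest falls of any member in these lines. In TIR1 the 133, 157 and 154 CPM before and 119, 136 and 128 CPM after auxin overlapped, with a call at -0.21 (adjusted p = 0.042).

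Pold2, an accessory subunit of the lagging-strand polymerase delta, fell in all 5 lines. In WAPL it went from 90.9, 94.5 and 91.4 CPM to 70.8, 57.7 and 53.4 CPM, a log2 change of -0.61 (SE 0.08, adjusted p = 2.4e-07 by edgeR), and treated replicate 1 stood above replicates 2 and 3. In TIR1 it changed by -0.32 (adjusted p = 0.0026). Pold3, another subunit of the same enzyme, behaved differently in the control: it was at 63.2, 72.5 and 64.6 CPM untreated and 72.5, 71.3 and 72.9 CPM with auxin (0.11, adjusted p = 0.13), and was called lower in PDS5AB (-0.22), WAPL (-0.35) and PDS5AB-NIPBL (-0.27).

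Pole, the catalytic subunit of the leading-strand polymerase epsilon, was called lower in all 5 lines, by between -0.51 in PDS5AB and -0.15 in TIR1. The primase subunits split. Prim1, the catalytic one, fell in PDS5AB (-0.37), WAPL (-0.32), PDS5AB-NIPBL (-0.31) and TIR1 (-0.23), while Prim2 was at 51.2, 56.6 and 52.5 CPM before and 46.8, 52.1 and 50.8 CPM after PDS5AB loss, with overlapping groups, and was not called in any line, with or without the block. Of these 9 genes, 8 fell in both PDS5AB and WAPL, 6 in PDS5AB-NIPBL (7 with the block), 3 in WAPL-NIPBL (4 with it) and 6 in TIR1. Pole2 shares 8.5% of its exon bases with Gm49384 and Pole 0.699% with Gm15792, so part of their fragments is uncertain.

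Pcna, the ring that holds polymerases on DNA, fell in PDS5AB from 249, 284 and 253 CPM to 141, 162 and 152 CPM (log2 change -0.79, SE 0.06, adjusted p = 6.3e-11 by edgeR). The WAPL libraries went from 286, 267 and 272 CPM to 215, 204 and 199.5 CPM (-0.42, adjusted p = 7.4e-06), a drop that was also complete but smaller. In TIR1 the levels were 282, 337 and 310.3 CPM and then 249, 257 and 249 CPM (-0.30, adjusted p = 0.0013).

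The clamp loader subunits followed with more variety. All 5 fell in PDS5AB, 4 in WAPL (Rfc3 was at -0.22, adjusted p = 0.055 by edgeR, and 0.0025 with the replicate block), and 3 in PDS5AB-NIPBL. Rfc5 was at 187, 172 and 172 CPM untreated and 139, 128 and 138 CPM treated in PDS5AB-NIPBL, with a clear gap (-0.39, SE 0.07, adjusted p = 0.00011), and in WAPL-NIPBL it was the 1 clamp or loader gene called (-0.25, adjusted p = 0.022), beside 4 with the block. In TIR1 Rfc5 was at 158, 163 and 159 CPM and 149.9, 159 and 157 CPM, which overlap (-0.04, adjusted p = 0.73). Its call in WAPL-NIPBL was lost without treated replicate 2 or 3 or any untreated replicate, at adjusted p between 0.0566 and 0.12.

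Rfc4 varied more between libraries: the untreated TIR1 replicates were at 40.2, 50.1 and 46.5 CPM and the treated ones at 32, 40 and 34.8 CPM, which nearly meet (-0.35, adjusted p = 0.024 by edgeR). It fell by -0.72 in PDS5AB and by -0.37 in PDS5AB-NIPBL (adjusted p = 0.023). The call in TIR1 was lost without treated replicate 1 or 3 or untreated replicate 2 or 3, and that in PDS5AB-NIPBL without treated replicate 1 or 3 or untreated replicate 2, with adjusted p between 0.0656 and 0.151. Part of the exon bases is shared with a neighbouring gene for Rfc2 (15.1%), Rfc4 (12.7%) and Rfc5 (10.7%).

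The 3 subunits of replication protein A, which coats single-stranded DNA, split in their response. Rpa1 and Rpa2 fell in PDS5AB (-0.29 and -0.36) and in WAPL (-0.25 and -0.48). Rpa1 also fell in PDS5AB-NIPBL (-0.25), and with the block both were called in each NIPBL line. Of the Rpa1 exon bases 0.789% are shared with Gm47300. Rpa3, the smallest subunit, stood at 47.8, 55.2 and 49.3 CPM before and 47.4, 52.1 and 50.2 CPM after PDS5AB loss, and at 52.5, 49.2 and 50.9 CPM and 55.5, 51.1 and 47.8 CPM in WAPL. In both lines the groups overlapped fully, with log2 changes of -0.02 and 0.02, and Rpa3 was not called lower or higher in any line. Its level per kb of exon, 45.6 CPM per kb in untreated TIR1 cells, lay between those of Rpa1 at 63.3 and Rpa2 at 41.7 CPM per kb.

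Lig1, the ligase that joins Okazaki fragments, went from 303, 276 and 284 CPM to 217, 199 and 198 CPM in PDS5AB (log2 change -0.49, adjusted p = 5.2e-06 by edgeR) and also fell in WAPL (-0.25) and PDS5AB-NIPBL (-0.23), and in WAPL-NIPBL with the block (-0.11, adjusted p = 0.0439). Part of its fragments is uncertain, with 5.79% of its exon bases shared with Zswim9. Fen1, the nuclease that trims the flaps, was counted at only 8.46, 8.63 and 8.42 CPM before and 7.2, 7.48 and 6.43 CPM after PDS5AB loss. Its change of -0.27 missed the threshold (adjusted p = 0.055) and passed with the replicate block (adjusted p = 0.017). Of its exon bases 84.2% are shared with Gm10143 and Tmem258, so its level is uncertain.

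Rrm2 showed the widest range of responses of all members. It encodes the small, cell-cycle-regulated subunit of ribonucleotide reductase, which makes the deoxynucleotides for replication, and lies on chromosome 12 at 24708241 to 24714146. In PDS5AB it went from 244, 218 and 212 CPM to 119, 111 and 109 CPM, the largest fall of the set (log2 change -0.99, SE 0.08, adjusted p = 3.3e-11 by edgeR). In WAPL it went from 430.0, 361 and 411 CPM to 279, 246 and 252 CPM (-0.63, adjusted p = 2e-07). All treated libraries of both lines lay well under the untreated ones.

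With NIPBL degraded as well, that fall was not seen. Rrm2 was at 371, 314 and 363 CPM untreated and 379, 347 and 389.5 CPM treated in PDS5AB-NIPBL (0.09, adjusted p = 0.49 by edgeR), and at 473, 434 and 441 CPM and 468, 398 and 422 CPM in WAPL-NIPBL (-0.07, adjusted p = 0.70). In both lines the groups overlapped. Auxin in TIR1 went the opposite way, from 373, 348 and 352 CPM to 405, 444 and 445 CPM, the 1 rise of a member in any line (0.27, SE 0.08, adjusted p = 0.013), which was lost without untreated replicate 2 (adjusted p = 0.058).

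The large subunit Rrm1 did not follow Rrm2. In WAPL it was at 352, 337 and 339 CPM and then 346, 314 and 319 CPM, overlapping groups with a change of -0.07 (adjusted p = 0.35 by edgeR), and it was called lower in PDS5AB (-0.29), PDS5AB-NIPBL (-0.17) and TIR1 (-0.18). Tyms, which makes thymidylate, fell in PDS5AB (-0.32) and PDS5AB-NIPBL (-0.21) and was at -0.09 in WAPL (adjusted p = 0.33).

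The TIR1 control asks how much of these responses auxin gives without a degron. Tested as the difference of the 2 treatment effects, 19 members fell further in PDS5AB than in TIR1, where 12.4% of all genes did, and 29 with the replicate block. In both directions together the block called 7983 of all genes, beside 5224 without it. With library size only, 10 members were called lower and 1 higher, and the median difference of the members went from -0.28 to -0.14 while that of all genes went from 0.04 to 0.18. Rrm2 differed by -1.26 (SE 0.11, adjusted p = 2.1e-09 by edgeR), Pola1 by -0.73 (SE 0.11, adjusted p = 6.9e-06) and Mcm10 by -0.70. In WAPL 11 members fell further than in TIR1 beside 10.9% of all genes, 20 with the block, 7 with those groups fitted alone and 17 without treated WAPL replicate 1. These were led by Rrm2 (-0.90, adjusted p = 4.7e-07) and Mcm4 (-0.50, adjusted p = 0.0003). Of all genes, 4122 were called for WAPL in both directions together, 7034 with the block, 3695 with those groups alone and 3810 without that replicate. No member was called higher in these 2 differences (13.9% and 9.86% of all genes were), with an unadjusted p under 0.05 for 0 and 1 members and 0 calls each by DESeq2. Other settings called 1 member higher. Gins2 was at 0.28 in WAPL relative to TIR1 (adjusted p = 0.092 by edgeR) and was called higher with the block (adjusted p = 0.00318), with library size only (adjusted p = 0.0185) and without untreated WAPL replicate 1 (adjusted p = 0.0259). Cdc45 was called higher in PDS5AB relative to TIR1 with library size only (0.28, adjusted p = 0.0259).

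For both NIPBL lines, few members differed from the control response. In PDS5AB-NIPBL 3 fell further than in TIR1 beside 4.81% of all genes: Pold3 (-0.38, adjusted p = 0.0011 by edgeR), Rfc5 (-0.35, adjusted p = 0.019) and Mcm4. Higher were 5.28% of all genes and no member, none of them with an unadjusted p under 0.05 and none by DESeq2, whereas the block gave 8 lower and 3 higher. That block count is near the share of all genes, where 4996 of 19868 were called in both directions together. In WAPL-NIPBL Pold3 fell further (-0.26, adjusted p = 0.032; 3.94% of all genes were called lower), and Gins2 (0.40, adjusted p = 0.034) and Pold1 (0.35, adjusted p = 0.027) differed upwards beside 3.1% of all genes. Gins2 and Pold1 were at -0.40 and -0.30 in TIR1 and at 0.00 and 0.06 in WAPL-NIPBL. In this comparison 2 members in all were called without untreated TIR1 replicate 3 or treated WAPL-NIPBL replicate 2, none without untreated WAPL-NIPBL replicate 2, and 1 without any other of the 12 libraries. With the block 5 were called in each direction, near the share of all genes, where 4436 of 19868 were called in both directions together. These 4 comparisons share the 6 TIR1 libraries.

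Whether NIPBL loss changed the response was tested between lines that share no library. Of the 44 members, 39 had a higher log2 change in PDS5AB-NIPBL than in PDS5AB, with a median difference of 0.19 beside -0.02 for all genes. With library size only these medians were 0.08 and -0.12. Called were 6, all upwards, beside 4.97% of all genes: Rrm2 by 1.08 (SE 0.11, adjusted p = 2e-07 by edgeR), Mcm10 by 0.58 (SE 0.11, adjusted p = 0.00057), Pola1, Pcna, Mcm3 and Pole2. DESeq2 called 10 of the members and the replicate block 25. Of all genes in both directions together, 1879 were called, 2366 by DESeq2 and 4847 with the block. No member was called downwards (4.48% of all genes were), none had an unadjusted p under 0.05 in that direction, and DESeq2 called none.

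A like difference was found between WAPL-NIPBL and WAPL, where 42 of the 44 members had the higher log2 change with NIPBL degraded, with a median difference of 0.17. Called upwards were 6 beside 3.03% of all genes, 21 with the block and 2 with those groups fitted alone: Rrm2 by 0.56 (adjusted p = 0.0015 by edgeR), Pola2 by 0.43 (adjusted p = 0.005), Mcm10, Pold1, Pold2 and Rfc1. Without treated replicate 1 or untreated replicate 2 of WAPL-NIPBL, 3 were called. Calls over all genes in both directions were 1032, 3070 with the block and 715 with those groups alone. They were 786 and 788 without those replicates in turn. Pola2, the regulatory subunit of polymerase alpha, was at 83.7, 73.7 and 81.2 CPM untreated and 60.3, 54.9 and 56.7 CPM treated in WAPL, and at 80.5, 80.6 and 84.9 CPM and 80.3, 79 and 79.8 CPM in WAPL-NIPBL, where the lowest untreated library is just above the highest treated one. No member was called downwards, where 2.16% of all genes were, or had an unadjusted p under 0.05 in that direction, and DESeq2 called none. The NIPBL lines also carry RAD21-Halo and received dTAG-13, and neither can be told apart from NIPBL loss.

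**Figure D4:**
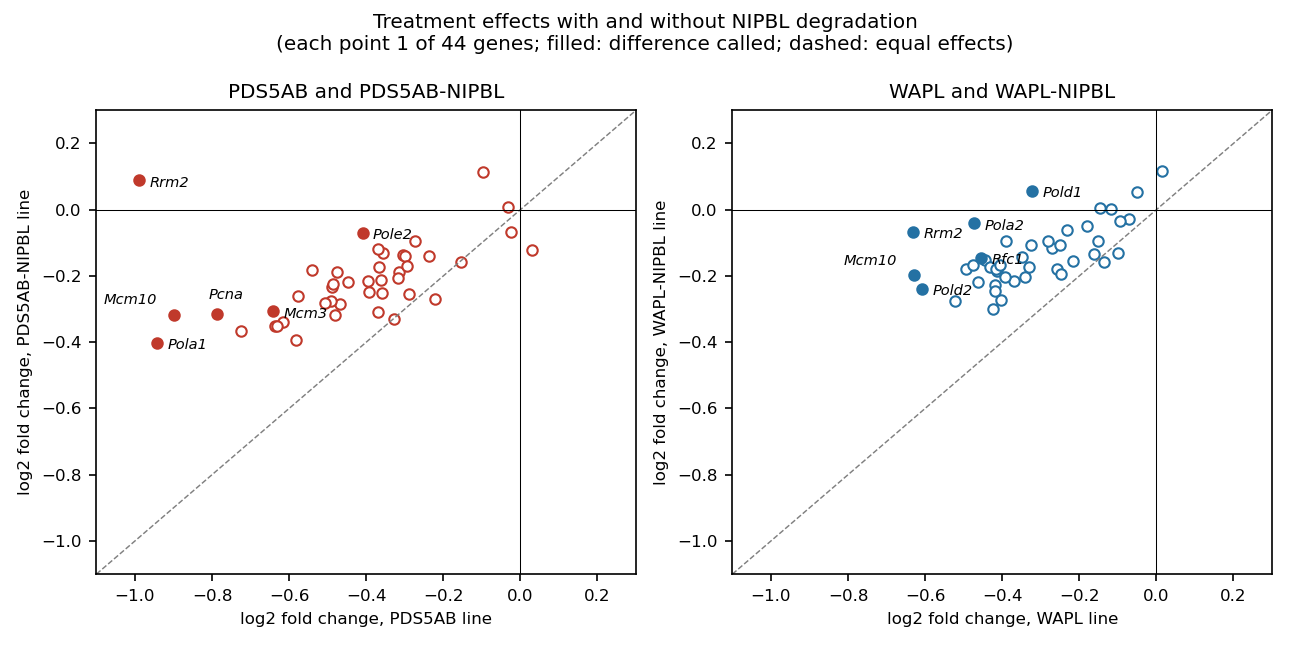
Each of the 44 genes is placed by its log2 fold change in the line without NIPBL degradation (horizontal) and with it (vertical), for PDS5AB on the left and WAPL on the right. Filled points are the 6 genes in each panel whose difference passed the test, and most points lie above the dashed line of equal effects, 39 on the left and 42 on the right.

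In the PDS5AB and WAPL lines, 32 members fell in both. Of all genes 20.2% fell in PDS5AB and 15.8% in WAPL, and the share that fell in both was not computed. Over the 44 genes the changes had a Pearson correlation of 0.715, given as a description because genes are not replicates, and both lines share the expression level and length of each gene. For PDS5AB-NIPBL and WAPL-NIPBL the correlation was 0.749. Pola1 fell further in PDS5AB than in WAPL, by -0.52 (SE 0.11, adjusted p = 0.0011 by edgeR), and so did Pcna (-0.37, adjusted p = 0.0059), Rrm2 (-0.36, adjusted p = 0.028) and Gmnn (-0.33, adjusted p = 0.045), 4 members beside 5.11% of all genes. None was called higher, where 7.38% of all genes were, none had an unadjusted p under 0.05 in that direction, and DESeq2 called none. The block gave 17 lower and 3 higher, with library size only Mcm4 was called higher, and with those groups alone 2 were called. These settings called 5422, 2733 and 1803 of all genes in both directions together, beside 2481 in the main fit. Without treated WAPL replicate 1 there were 2 calls of members, without treated WAPL replicate 2 or 3 there were 7, and without untreated WAPL replicate 1 there were 8. Those fits called between 2344 and 2567 of all genes.

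The lines differed before any treatment. Compared with untreated TIR1, 22 members were lower in the untreated PDS5AB line beside 16.5% of all genes, and 2 were higher beside 15.5%. Rrm2 was the most reduced, at the 244, 218 and 212 CPM given above beside 373, 348 and 352 CPM (log2 difference -0.67, adjusted p = 4.6e-08 by edgeR), followed by Lig1 (-0.43, adjusted p = 4.2e-05). Pola2 stood out in the other direction, at 114, 125 and 131 CPM beside 71.7, 85.9 and 85.8 CPM in TIR1 (0.61, adjusted p = 1.7e-08), and Prim1 was higher by 0.28 (adjusted p = 0.0084).

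In untreated PDS5AB-NIPBL cells 21 members were lower beside 17.8% of all genes and 2 higher beside 16.5%. Mcm10 (-0.63, adjusted p = 1.2e-07 by edgeR) and Gins1 (-0.44, adjusted p = 2.2e-05) were lowest relative to TIR1, and Pola2 (0.40) and Pold3 (0.16) were higher. In total, in both directions, 12 members were called without untreated replicate 2 of this line and 13 without untreated replicate 2 of TIR1. Those fits called 5620 and 5474 of all genes, beside 6809 with every library. The WAPL line started near TIR1, with Pola1 (-0.26) and Gins2 (-0.25) lower beside 7.39% of all genes and Pold3 (0.20) higher beside 6.62%. With the replicate block 4 were lower and 1 higher, and 1 was called without untreated TIR1 replicate 2 or 3. Those fits called 3639, 1621 and 2010 of all genes, in both directions together, beside 2785 in the main fit. In WAPL-NIPBL 8 were lower beside 14.6% of all genes, led by Mcm10 (-0.31) and Gins1 (-0.30), and Rrm2 (0.33) and Pold3 (0.21) were higher beside 13.4%. These comparisons share the untreated TIR1 libraries, and only the PDS5AB libraries come from the same range of library numbers as those.

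Most replication genes outside the 44 members were lower in the PDS5AB and WAPL lines as well. Of 29 further origin and fork factors tested, 20 fell and 3 rose in PDS5AB, 18 fell and 1 rose in WAPL, 11 fell in PDS5AB-NIPBL, 2 fell in WAPL-NIPBL, and 4 fell and 1 rose in TIR1. The medians were -0.32, -0.27, -0.19, -0.08 and -0.01 in that order. For this and the lists that follow, the shares of all genes called lower and higher were 20.2% and 25.8% in PDS5AB, 15.8% and 17% in WAPL, 8.06% and 11.4% in PDS5AB-NIPBL, 3.45% and 5.11% in WAPL-NIPBL, and 9.59% and 10.4% in TIR1. Against these shares the TIR1 and WAPL-NIPBL counts of the fork factors are near the background. Rnaseh2a, a subunit of the nuclease that removes RNA from DNA, was at -0.83 in PDS5AB, and Tipin, a factor of fork stability, was at -0.80 in WAPL. Pold4, the smallest subunit of polymerase delta, rose by 0.90 in PDS5AB, and Donson by 0.29. Pold4 had the fewest counts of this list, a mean of 75.8 per library. Under the block WAPL had 21 of the 29 lower, PDS5AB-NIPBL 16 and WAPL-NIPBL 11, with 1 higher in the last. For this and the later lists, the block called 8960, 6377 and 4152 of all genes in these lines, in both directions together. Without it these numbers were 6517, 3874 and 1702.

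Of 18 other genes of nucleotide supply, 13 fell and 1 rose in PDS5AB, 13 fell in WAPL (1 also rose with the block), 8 fell and 1 rose in PDS5AB-NIPBL, 3 fell in WAPL-NIPBL (10 with the block) and 4 fell and 2 rose in TIR1, with medians of -0.50, -0.29, -0.21, -0.13 and -0.12. The falls in PDS5AB were led by Dtymk (-1.07) and Shmt1 (-0.98), enzymes that make thymidine nucleotides and carry one-carbon units. Rrm2b, the p53-regulated counterpart of Rrm2, rose in PDS5AB by 0.74, in PDS5AB-NIPBL by 0.73 and in TIR1 by 0.69, and Dck, a nucleoside kinase, rose in TIR1 by 0.22. Among 12 genes of chromatin assembly at forks, 10 fell in PDS5AB, 9 fell and 1 rose in WAPL, 10 fell in PDS5AB-NIPBL and 3 in WAPL-NIPBL (8 with the block, which also called 1 higher in each NIPBL line). In TIR1 none was called by edgeR and 1 had an unadjusted p under 0.05, with a lower level. The medians were -0.47, -0.31, -0.22, -0.15 and -0.06. Uhrf1, which directs maintenance of DNA methylation, was at -0.84 in PDS5AB, Chaf1b, a histone chaperone subunit, was at -0.73 in WAPL, and Rbbp7, a histone-binding protein, rose there by 0.54.

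**Figure D5:**
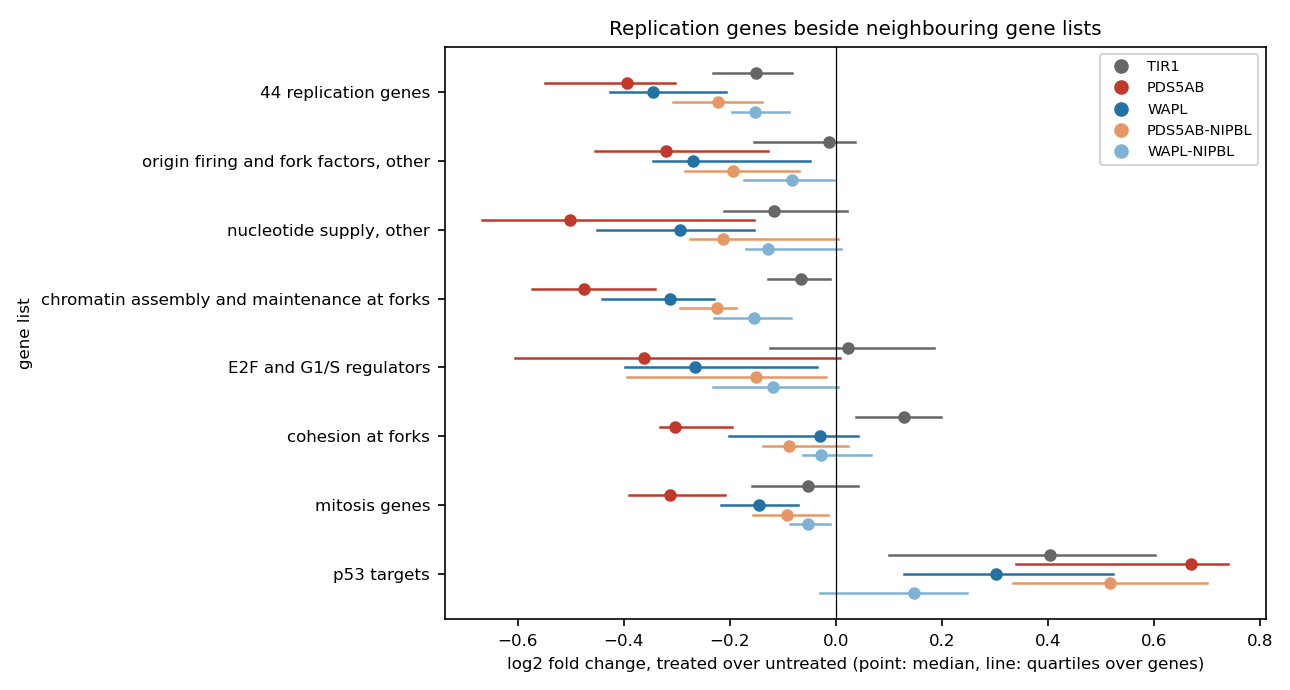
The median log2 fold change of each of 8 gene lists is plotted for the 5 lines, with bars from the lower to the upper quartile of the genes in the list. Replication members, fork factors, nucleotide supply and chromatin assembly lie below 0 in every line, and p53 targets lie above 0 in every line.

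In the degron lines more regulators of entry into S phase fell than rose, and the rises were near the shares of all genes. Of 26 E2F and G1/S genes, 16 fell and 5 rose in PDS5AB beside 20.2% and 25.8% of all genes, 14 fell and 5 rose in WAPL beside 15.8% and 17%, 9 fell and 4 rose in PDS5AB-NIPBL beside 8.06% and 11.4%, where 14 fell and 6 rose with the block, and 3 fell and 1 rose in WAPL-NIPBL beside 3.45% and 5.11%, where 12 fell and 3 rose with the block. Ccnd1, which encodes cyclin D1, was at -1.77 in PDS5AB, where Ccnd2, which encodes cyclin D2, rose by 2.17 and Cdkn2c, an inhibitor of cyclin D kinases, by 1.68. Ccnd2 and Cdkn2c had the fewest counts of this list, means of 79.0 and 75.8 per library. In TIR1 3 fell and 5 rose beside 9.59% and 10.4% of all genes, and Ccnd2 was at -1.47 (adjusted p = 0.00396 by edgeR). Of 9 genes of sister chromatid cohesion at forks, 6 fell in PDS5AB, led by the cohesin subunit genes Rad21 (-0.41) and Smc3 (-0.40), and 3 fell and 2 rose in WAPL, where Stag1, another cohesin subunit gene, rose by 0.36. In TIR1 2 of them rose, among them Esco2, a cohesin acetyltransferase, by 0.29. No gene of this list was called in the NIPBL lines by edgeR, 4 and 1 had an unadjusted p under 0.05, and 5 and 2 were called with the block.

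Genes of mitosis, which peak after S phase, had medians nearer 0 than the replication members. Of 20 such genes 14 fell and 1 rose in PDS5AB and 5 fell in WAPL, with list medians of -0.31 and -0.15 beside -0.39 and -0.34 for the members, and 13 fell in WAPL with the block. Plk1 and Nusap1, a mitotic kinase and a spindle protein, were at -0.57 and -0.41 in PDS5AB, and Kif23, a motor of cell division, was at 0.27. In the NIPBL lines none was called by edgeR, 5 and 2 had an unadjusted p under 0.05 and a lower level, and 10 and 3 fell with the block, which also called 1 higher in PDS5AB-NIPBL. In TIR1 3 fell and 1 rose. Of 14 targets of the stress-responsive factor p53, 11 rose and 1 (Bax, -0.19) fell in PDS5AB, 7 rose and 1 (Bax, -0.19) fell in WAPL, and 11 rose in PDS5AB-NIPBL, 3 in WAPL-NIPBL (with the block 8 rose and 1 fell) and 9 in TIR1, led by the death receptor gene Fas at 2.15 in PDS5AB. Fas had the fewest counts of these targets, a mean of 38.8 per library. Cdkn1a, the p53 target that inhibits S phase entry, rose in TIR1 (0.62), PDS5AB (0.74) and PDS5AB-NIPBL (0.33), and was at 0.13 in WAPL (adjusted p = 0.26 by edgeR) and -0.03 in WAPL-NIPBL (adjusted p = 0.89).

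Pluripotency markers were lower in every degron line, and markers of other cell types moved in both directions. All 10 pluripotency markers fell in PDS5AB and 8 in each of the other degron lines. In TIR1 3 fell and 2 rose. Their summed level went from between 6791 and 7379 to between 4490 and 4793 CPM in PDS5AB and from between 6677 and 6931 to between 5156 and 5352 CPM in WAPL. Of 6 endoderm markers 3 rose in PDS5AB, 4 in WAPL, 2 in each NIPBL line and 1 in TIR1. They summed to between 13.3 and 14.6 CPM before and between 24.8 and 28.1 CPM after PDS5AB loss, and to between 4.42 and 5.00 and then between 8.30 and 9.95 CPM in WAPL. The endoderm sum was higher after treatment in the other lines too, by 69% in TIR1, 174.1% in PDS5AB-NIPBL and 128.3% in WAPL-NIPBL. Trophoblast markers summed to 50.2% more in TIR1 and 55.8% more in PDS5AB, and changed by -60.1% in WAPL, -31.6% in WAPL-NIPBL and, with overlapping groups, -12.8% in PDS5AB-NIPBL. The sum of neural markers was lower in each line, by between -23.6% and -46.2%, from sums of 8.76 CPM or less. Mesoderm markers were 44.5% higher in WAPL and 40.1% higher in WAPL-NIPBL, and changed by -21.4% in PDS5AB, while they overlapped in TIR1 (6.8%) and PDS5AB-NIPBL (-19.1%). Fibroblast markers changed by -61.9% in WAPL, -29.1% in WAPL-NIPBL and -26.8% in TIR1, were 17.1% higher in PDS5AB and overlapped in PDS5AB-NIPBL (12.1%). No marker of the 6 cell type lists was at 0 over the 30 libraries. The part of these shifts in the levels of the replication genes was not tested.

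Finally, the members were read against the promoter letters shown above. In PDS5AB all 15 members with an E2F octamer fell, with a median of -0.48, and 16 of the 21 members without it, with a median of -0.36. In WAPL 14 of 15 and 14 of 21 fell, with medians of -0.35 and -0.32. The share went the other way in PDS5AB-NIPBL, with 8 of 15 and 13 of 21 and medians of -0.25 and -0.21. In WAPL-NIPBL 4 of 15 and 3 of 21 fell (medians -0.17 and -0.13), and in TIR1 6 of 15 and 8 of 21 (medians -0.15 and -0.17). Rrm2 and Mcm10, which fell furthest in WAPL, are among those without an octamer in the window, as are Rpa3 and Cdc45. These medians and counts are descriptions of 36 genes with no test.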

How the data were processed

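The authors deposited 1 table of paired-end fragment counts per gene for 30 libraries. Per the file headers, it was made with featureCounts 2.0.1 on GENCODE vM23 (GRCm38) with no strand option set. The submitters' processing notes also name cutadapt, STAR 2.7.7a and deepTools. Per the labels, RNA was extracted with TRIzol and libraries were made from polyA RNA with a stranded kit, while the molecule and library source fields of the same labels say genomic DNA and genomic. The series type is expression profiling and the table counts fragments per gene, so the values were treated as RNA-seq counts. Because counting ignored strand, genes with overlapping exons are given as uncertain. Gene lengths (other) came from the same table.

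Here 55154 of 55421 gene IDs (99.5%) had a symbol. Genes were kept with edgeR's filterByExpr (count minimum 10), which left 19868. Counts were scaled by TMM and tested with edgeR 4.0.16 (R 4.3.3) by the quasi-likelihood test over all 30 libraries, with 1 coefficient for each of 10 groups and 20 residual degrees of freedom. Contrasts gave 5 treatment effects, 4 comparisons of untreated lines with untreated TIR1, and 7 differences of effects. P-values were adjusted by Benjamini-Hochberg over all genes tested, with a threshold of 0.05. The fit was run on simulated counts with the same dispersion for every gene and changes in the treated PDS5AB libraries alone. These counts held no link between same-numbered libraries, so they do not show how the fit handles such a link.

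Same-numbered untreated and treated libraries deviated together in the 4 degron lines (every correlation between 0.109 and 0.333) and not in TIR1 (between -0.0102 and 0.0574), so a replicate block is given there beside the results on members whose call it changes or whose count it moves by over 1.5 times. The alternatives were DESeq2 1.42.0, its size factors, library size alone, no filter, the compared groups alone, the block and leaving out each library.

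The members and the gene lists were chosen with earlier results of these data known. Named were the 4 called members with the largest change in each direction per treatment effect, the 2 largest per other comparison, the exceptions of each role group, the 2 largest called genes per further list and direction, and Cdkn1a. Values of other members were chosen for description after they were seen. Promoter letters came from the RefSeq promoter table on GRCm38.p6.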

Additional observations from a re-analysis of the deposited data

Results flagged for a closer look

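These members had treatment effects that differed between lines by the test of the difference itself, and no explanation was tested. Against the response of TIR1, Rrm2 differed by -1.26 and Pola1 by -0.73 in PDS5AB, and Rrm2 by -0.90 and Mcm4 by -0.50 in WAPL. Pold3 differed by -0.38 and Rfc5 by -0.35 in PDS5AB-NIPBL. Pold3 differed by -0.26, Gins2 by 0.40 and Pold1 by 0.35 in WAPL-NIPBL. The calls in WAPL-NIPBL are near the shares of all genes, 3.94% lower and 3.1% higher. Leaving out a library left 0 to 2 members called there, and 67.3% of the Gins2 exon bases are shared with Gse1. All comparisons with TIR1 share its libraries. Between lines with and without NIPBL degradation, Rrm2 differed by 1.08 and Mcm10 by 0.58 on the PDS5AB side, and Rrm2 by 0.56 and Pola2 by 0.43 on the WAPL side. Between PDS5AB and WAPL, Pola1 differed by -0.52 and Pcna by -0.37.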

How the results depend on the processing

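Neither the median of the members in a treatment effect nor any of the 21 changes of a single gene recomputed here reversed its direction under these alternatives. Other genes named in the report were not part of that count. For WAPL-NIPBL minus TIR1 the median of the members, 0.02, lay between -0.01 and 0.04 when a library was left out and so crossed 0, and its calls of 2 higher and 1 lower became 0 higher and 1 lower with no filter. Of the 294 values of counts and medians computed under the alternatives, 233 stayed within 1.5 times the main count or within 1 SD of the main median and 61 did not. For single named genes 229 values kept the call and 23 lost it. The cause of these shifts was not tested, except that fewer samples enter when a library is left out or groups are fitted alone. With the replicate block, the members called numbered 29 for PDS5AB minus TIR1, 20 for PDS5AB minus WAPL, 25 for PDS5AB-NIPBL minus PDS5AB, 11 for PDS5AB-NIPBL minus TIR1, 21 for WAPL minus TIR1, 10 for WAPL-NIPBL minus TIR1, 21 for WAPL-NIPBL minus WAPL, 26 for the WAPL-NIPBL effect and 5 for untreated WAPL. The block lost no call of a member, and in every comparison it also called more of all genes. In TIR1, where the numbers share no more than a number, it called 27. With groups alone, 2 were called for PDS5AB minus WAPL, 7 for WAPL minus TIR1, 2 for WAPL-NIPBL minus WAPL and 1 for untreated WAPL, and the PDS5AB median was -0.43. With library size only, 11 were called for PDS5AB minus TIR1 and 5 for the WAPL-NIPBL effect, and the medians were -0.24 for PDS5AB, -0.26 for WAPL, -0.18 for PDS5AB-NIPBL and -0.10 for WAPL-NIPBL. With no filter, 14 were called for untreated PDS5AB-NIPBL, 1 for untreated WAPL, 1 for WAPL-NIPBL minus TIR1 and 5 for the WAPL-NIPBL effect. DESeq2 called 10 for PDS5AB-NIPBL minus PDS5AB. Leaving out each library in turn gave 38 to 39 members for the PDS5AB effect, 25 to 36 for WAPL, 18 to 24 for PDS5AB-NIPBL, 1 to 7 for WAPL-NIPBL and 6 to 17 for TIR1. Untreated lines gave 18 to 22 (PDS5AB), 1 to 3 (WAPL), 12 to 20 (PDS5AB-NIPBL) and 7 to 13 (WAPL-NIPBL). Differences gave 15 to 22 (PDS5AB minus TIR1), 8 to 17 (WAPL minus TIR1), 2 to 4 (PDS5AB-NIPBL minus TIR1), 0 to 2 (WAPL-NIPBL minus TIR1), 5 to 9 (PDS5AB-NIPBL minus PDS5AB), 3 to 8 (WAPL-NIPBL minus WAPL) and 2 to 8 (PDS5AB minus WAPL). Medians ranged from -0.42 to -0.39 in PDS5AB, -0.37 to -0.31 in WAPL, -0.26 to -0.20 in PDS5AB-NIPBL, -0.16 to -0.11 in WAPL-NIPBL and -0.16 to -0.13 in TIR1.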
